A study of Mus musculus with 18 samples.

Results

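The Nodal and BMP pathway target genes described here are Nodal, Lefty1, Lefty2, Tdgf1, Smad7, Skil, Id1, Id2, Id3 and Smad6, which are 10 of the 54446 genes in the count files. The rule goes by name and itself uses no measured value: a gene belonged to the set where its Ensembl identifier carries 1 of these symbols in the GENCODE M21 mouse annotation. All 10 were found, and all 10 passed the filter on low counts that left 19910 genes for testing. The study exposed mouse embryonic stem (mES) cells to 5-ethynyl uridine (5-EU), a uridine analogue that growing transcripts take up, for 10, 20 or 40 min, and then captured and sequenced the labelled, newly made RNA. WT cells were set against Tet2-KO cells, which lack the methylcytosine dioxygenase TET2, with 3 replicate libraries for each genotype and labelling time and 18 libraries in all. Every culture received 1 mM 5-EU and was kept in serum medium with LIF, the GSK3 inhibitor CHIR99021 and the MEK inhibitor PD0325901, and feeder cells were cleared by passages on gelatin. Both genotypes are established cell lines, 1 line each, so the effect of the Tet2 deletion and any other difference between the 2 lines cannot be told apart. The labels do not say whether the replicates were separate cultures, and the p-values measure only the spread between these dishes, which may be technical.

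Nodal is a secreted ligand of the TGF-β family that binds activin receptors together with a co-receptor, after which SMAD2 and SMAD3 enter the nucleus with SMAD4 and act on DNA alongside partners such as FOXH1. BMP ligands use their own receptors and SMAD1, SMAD5 and SMAD9. Both branches switch on their own inhibitors, and in mES cells Nodal signalling is known for its place in the exit from naive pluripotency, while BMP signalling through the Id genes is known for supporting self-renewal in serum. The files hold RNA counts and no measure of SMAD activity, so the word target rests on background knowledge and was not examined.

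These genes differed between the genotypes in different directions. As a share of the gene reads of each library, given in CPM (counts per 1000000 gene reads) and averaged over the 3 labelling times, Smad7 and Smad6 were higher in Tet2-KO cells, by 1.59-fold and 1.46-fold. Lefty1, Lefty2 and Tdgf1 were lower, by 2.24-fold, 2.02-fold and 1.72-fold. Smaller decreases were called for Id1, Id2, Id3 and Skil, and Nodal was not called, with a log2 difference of 0.03 (95% interval −0.05 to 0.11). By the quasi-likelihood test of edgeR with p-values adjusted after Benjamini and Hochberg, 2 of the 10 genes were thus called higher and 7 lower at an adjusted p under 0.05, where 24.6% of all genes tested were called higher and 32.0% lower. The median log2 difference was −0.53 over the 10 genes and −0.04 over all genes tested.

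A second scale used the ERCC RNAs, synthetic transcripts that were added to the captured RNA in proportion to the total RNA of each sample, so that reads per ERCC read follow the amount of labelled RNA per total RNA. On that scale the median of all genes was itself 0.70 higher in Tet2-KO cells (log2), with 80.5% of genes called higher and 4.15% lower. Of the 10 genes, 5 were called higher (Smad7, Smad6, Nodal, Skil and Id3), 2 lower (Lefty1 and Lefty2) and 3 were not called (Tdgf1, Id1 and Id2), and their median log2 difference was 0.21. Directions therefore depended on the scale for Skil and Id3, which were higher per ERCC read and lower as a share. Smad7, Smad6, Lefty1 and Lefty2 had the same direction and a call on both scales. Smad7 and Smad6 were above WT in all Tet2-KO libraries of every time on both scales, which held for 11.8% of all genes as a share and 51.6% per ERCC read. Lefty1, Lefty2, Tdgf1 and Id2 were below WT in the same way as a share (13.9% of all genes), and Lefty2 alone of the 10 also per ERCC read (1.56%).

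**Figure D1:**
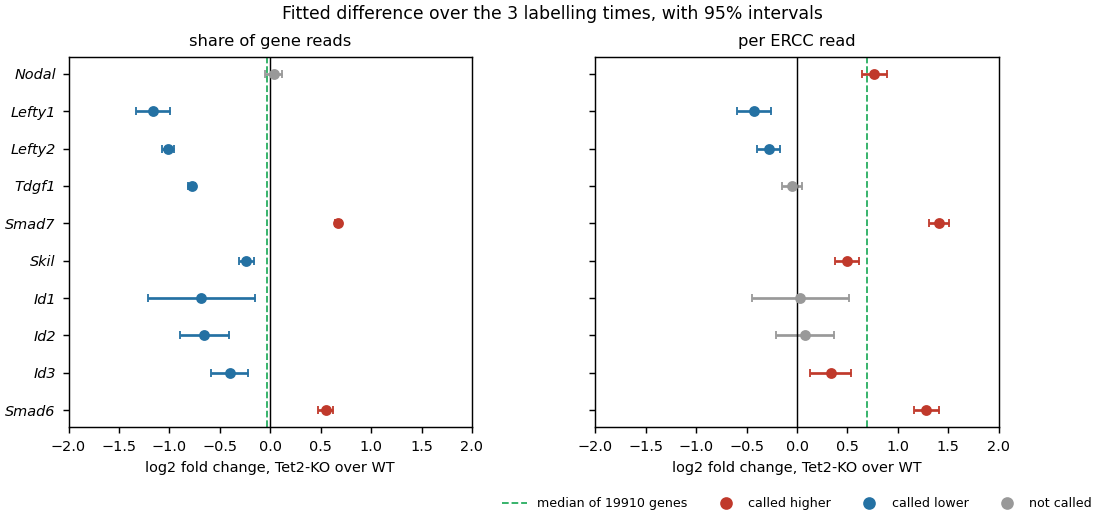
Log2 difference of Tet2-KO against WT (mean of the 3 labelling times, x axis) for each of the 10 genes (y axis), per ERCC read and as a share of gene reads, with 95% confidence intervals, red for called higher, blue for called lower, grey for not called and dashed lines at the median of all genes tested on each scale (0.70 and −0.04). Smad7 and Smad6 lay above 0 and Lefty1 and Lefty2 below 0 on both scales, whereas Skil and Id3 lay above 0 per ERCC read and below 0 as a share.

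The libraries held 17931614 to 23069143 reads on genes and 44162 to 512186 reads on ERCC RNAs, so counting precision was high for Smad7 and Tdgf1, with at least 2544 counts in every library, and low for Id1, with 4 to 42. The deposited counts covered whole gene spans, introns included, and were strand-specific: of 181 protein-coding genes that lie wholly inside a gene of the same strand without sharing an exon, 180 had no count in any library, against 60 of 428 inside a gene of the opposite strand. No annotated gene overlaps any of the 10 genes. Tet2 itself held 589 to 741 CPM in WT and 530 to 643 in Tet2-KO libraries, and because a count over the span does not show a deleted exon, the genotypes are those of the labels. The mES cell label was checked on 8 pluripotency markers, of which 7 passed the filter: their summed level ran from 2043 to 2228 CPM in WT and from 1585 to 1754 in Tet2-KO libraries, and Sox2 was at 0 in every library, lying inside Sox2ot on the same strand. As a share, Pou5f1 (log2 0.16) and Tbx3 (0.29) were called higher in Tet2-KO cells and the other 5 lower, the furthest Zfp42 (−2.25), whose median over the 9 libraries was 534 CPM in WT and 116 in Tet2-KO cells. Per ERCC read, 4 of these 7 were called higher, 1 lower (Zfp42, −1.52) and 2 were not called. Feeder fibroblast markers summed to 3.35 to 20.4 CPM in WT and 6.05 to 13.9 in Tet2-KO libraries, and 2 of the 6 tested, Col1a1 and Col3a1, were called higher in Tet2-KO cells on the share scale. Primitive endoderm markers summed to 14.9 to 21.7 CPM in WT and 14.7 to 19.05 in Tet2-KO libraries, trophectoderm markers to 2.198 to 4.10 and 1.89 to 3.83, and markers of early mesoderm and primed cells to 7.68 to 10.9 and 9.73 to 12.4. Of the 4 tested in this last list, Otx2 was called higher as a share (2.17) and Eomes (−0.66) and Fgf5 (−1.60) lower. Of the 5 primitive endoderm markers tested, Gata4 was called lower as a share (−0.42) and 4 were not called. None of the 3 trophectoderm markers tested was called on that scale. Per ERCC read, 4 of 6 feeder fibroblast and 5 of 5 primitive endoderm markers were called higher. So were 2 of 3 trophectoderm markers and 1 of 4 in the early mesoderm and primed list, where 80.5% of all genes were. The part of these marker differences in the values below was not tested, and fewer cells of a type and less RNA per cell cannot be told apart in such bulk libraries.

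Promoter windows are shown for 3 genes with different calls between the genotypes as a share of gene reads, namely Nodal (not called), Tdgf1 (lower) and Smad6 (higher). They run 5′ to 3′ on the gene's strand from 250 bases before to 10 bases after the start in RefSeq (GRCm38.p6), at chr10:61417722-61417981 (plus strand), chr9:110946149-110946408 (minus strand) and chr9:64022050-64022309 (minus strand). Capitals mark matches to 4 motifs searched on both strands, the SMAD palindrome GTCTAGAC, the shorter SMAD element CAGAC, the GC-rich SMAD motif GGCGCC and the FOXH1 motif AATNNACA.
Nodal: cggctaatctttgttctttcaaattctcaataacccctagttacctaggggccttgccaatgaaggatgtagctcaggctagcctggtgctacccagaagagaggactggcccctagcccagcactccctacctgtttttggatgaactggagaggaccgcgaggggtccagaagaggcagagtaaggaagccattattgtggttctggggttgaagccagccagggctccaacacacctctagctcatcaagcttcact
Tdgf1: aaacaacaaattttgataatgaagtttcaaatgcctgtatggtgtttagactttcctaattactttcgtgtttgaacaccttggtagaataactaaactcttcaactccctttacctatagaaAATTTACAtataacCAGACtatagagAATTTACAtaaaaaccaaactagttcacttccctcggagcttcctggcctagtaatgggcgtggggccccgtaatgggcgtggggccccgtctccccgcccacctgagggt
Smad6: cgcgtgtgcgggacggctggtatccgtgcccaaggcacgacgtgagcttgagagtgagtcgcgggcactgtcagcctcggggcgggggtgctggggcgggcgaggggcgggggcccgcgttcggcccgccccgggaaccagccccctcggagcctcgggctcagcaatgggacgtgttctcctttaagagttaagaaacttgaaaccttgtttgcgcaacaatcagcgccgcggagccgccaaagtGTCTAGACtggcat
The Tdgf1 window held FOXH1 motifs at positions −127 and −101 from the start and a SMAD element CAGAC at −113 between them. These matches do not overlap each other. The Smad6 window held the palindrome at −4, and the Nodal window held none of the 4 motifs. Among 32851 promoters of the RefSeq table the palindrome occurred in 0.213%, CAGAC in 49.6%, the GC-rich motif in 11.9% and the FOXH1 motif in 12.2%. Those promoters were searched to 50 bases after the start, further than the windows shown. Base composition differed between the windows, with 66.2% G and C in Smad6, 52.7% in Nodal and 42.7% in Tdgf1. The table also held Id2, with the GC-rich motif at −231, and Id3, with CAGAC at −167 and, on the other strand, at −68. It held no promoter matched to Lefty1, Lefty2, Smad7, Skil or Id1, which were therefore not searched. A match is a description of the letters and not evidence of binding, and binding was not measured here.

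Nodal (ENSMUSG00000037171, chromosome 10, 61417972 to 61425338, plus strand, GRCm38), the ligand, had 478 to 1040 counts per library. In WT cells, Nodal took 26.6, 28.8 and 28.2 CPM at 10 min, 37.2, 34.9 and 35.7 at 20 min and 45.1, 41.9 and 39.3 at 40 min. Tet2-KO libraries gave Nodal 31.0, 26.5 and 28.8 at 10 min, 33.4, 39.2 and 38.3 at 20 min and 44.0, 41.7 and 41.5 at 40 min. The genotypes overlapped at each labelling time on this scale, and the mean log2 difference was 0.03 ± 0.041 (SE), adjusted p = 0.52 by the same test. Per 1000 ERCC reads, Nodal stood at 1.24, 1.47 and 1.21 (10 min), 5.37, 5.48 and 5.01 (20 min) and 11.0, 10.8 and 9.40 (40 min) in WT cells. The corresponding Nodal values in Tet2-KO cells were 2.97, 2.38 and 2.90 (10 min), 6.39, 8.46 and 8.08 (20 min) and 18.9, 15.3 and 16.5 (40 min). All Tet2-KO libraries lay above all WT libraries at each time, and the log2 difference of 0.77 (1.70-fold, adjusted p = 1.5e-29) was 0.07 from the median of all genes and at percentile 59.6 among them. Labelled Nodal RNA was thus higher per ERCC read by about as much as the median gene, and its share overlapped between the genotypes.

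Tdgf1 (ENSMUSG00000032494, chromosome 9, 110939603 to 110946158, minus strand), also called Cripto, encodes the membrane co-receptor that Nodal needs and is itself a Nodal target in mES cells. In WT cells, Tdgf1 took 259, 256 and 254 CPM at 10 min, 255, 242 and 246 at 20 min and 241, 236 and 249 at 40 min. In Tet2-KO cells, Tdgf1 took 143, 145 and 144 (10 min), 146, 151 and 156 (20 min) and 137, 141 and 142 (40 min). Every Tet2-KO library was below every WT library at each time. The mean log2 difference in share was −0.78 ± 0.017 (SE; 1.72-fold lower), adjusted p = 5.1e-28, and fell at percentile 7.61 of all genes. On the ERCC scale, in reads per 1000 ERCC reads, Tdgf1 averaged 12.0 ± 1.07, 36.5 ± 1.79 and 59.8 ± 1.19 in WT and 13.7 ± 0.758, 31.1 ± 2.70 and 55.5 ± 3.69 in Tet2-KO cells (mean ± SD, n = 3 each) at 10, 20 and 40 min. On this scale the genotypes overlapped at 2 of the 3 times, the mean log2 difference was −0.05 (95% interval −0.15 to 0.05, adjusted p = 0.39), and its value lay 0.74 below the median of all genes. At single times it was called higher at 10 min (0.20, adjusted p = 0.032) and lower at 20 min (−0.23, adjusted p = 0.018). The 10 min call was lost with TMM among ERCC transcripts (adjusted p = 0.077), without a filter on low counts (0.052), and with 10 min fitted alone (0.076). It was also lost without WT replicate 1 (0.060) or 3 (0.18) or Tet2-KO replicate 1 (0.067) or 3 (0.13), and the 20 min call without WT replicate 1 (0.055) or 2 (0.069) or Tet2-KO replicate 1 (0.15). Of the 75-base words in its transcripts, 5.99% also occur in the pseudogene Tdgf1-ps1, so part of its reads could be shared with that copy. Its introns were not searched.

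Lefty1 and Lefty2 encode secreted antagonists that bind Nodal or its co-receptor and are induced by Nodal itself. They sit near each other on chromosome 1 on the plus strand, Lefty2 (ENSMUSG00000066652) at 180893108 to 180899103 and Lefty1 (ENSMUSG00000038793) at 180935022 to 180938400. In WT cells, Lefty1 took 21.5, 18.4 and 19.3 CPM at 10 min, 16.2, 16.2 and 14.0 at 20 min and 17.2, 16.9 and 15.4 at 40 min. Lefty1 in Tet2-KO cells took 9.78, 5.05 and 9.24 (10 min), 7.31, 7.61 and 10.3 (20 min) and 6.07, 7.22 and 6.52 (40 min). The genotypes did not overlap at any time, and the lowest value, in replicate 2 of Tet2-KO at 10 min, came from 91 counts. In WT cells, Lefty2 took 64.3, 64.0 and 68.4 CPM at 10 min, 57.3, 56.2 and 58.4 at 20 min and 62.4, 60.8 and 61.3 at 40 min. Lefty2 in Tet2-KO cells took 27.3, 29.2 and 28.5 (10 min), 31.9, 33.2 and 32.2 (20 min) and 30.9, 29.6 and 30.4 (40 min), again with no overlap at any time and with replicates closer to each other than those of Lefty1. The mean log2 differences were −1.16 ± 0.087 (SE; 2.24-fold lower, adjusted p = 1.6e-13) for Lefty1 and −1.02 ± 0.031 (2.02-fold lower, adjusted p = 2.9e-24) for Lefty2, at percentiles 3.69 and 4.76 of all genes.

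Per 1000 ERCC reads, Lefty2 stood at 2.99, 3.25 and 2.93 (10 min), 8.28, 8.84 and 8.18 (20 min) and 15.2, 15.7 and 14.7 (40 min) in WT cells. The Tet2-KO values of Lefty2 were 2.62, 2.62 and 2.87 (10 min), 6.12, 7.16 and 6.80 (20 min) and 13.2, 10.8 and 12.1 (40 min), below every WT value of the same time. Lefty1 averaged 0.921 ± 0.0878, 2.28 ± 0.296 and 4.09 ± 0.352 per 1000 ERCC reads in WT and 0.774 ± 0.278, 1.74 ± 0.394 and 2.61 ± 0.0282 in Tet2-KO cells (mean ± SD, n = 3 each), with all Tet2-KO libraries below all WT libraries at 1 of the 3 times. Both genes thus made less labelled RNA per ERCC read while the median gene made more: the log2 difference was −0.43 ± 0.086 (SE, adjusted p = 1.4e-06) for Lefty1 and −0.28 ± 0.060 (adjusted p = 5.7e-06) for Lefty2, which lay 1.12 and 0.98 below the median of all genes. At 10 min neither gene passed the test on this scale, either in the fit of all times (adjusted p = 0.11 and 0.10) or with 10 min fitted alone (0.175 and 0.184). The Lefty1 call at 20 min per ERCC read (−0.39, adjusted p = 0.016) was lost with DESeq2 (adjusted p = 0.13) and without WT replicate 2 (0.098) or Tet2-KO replicate 1 (0.18) or 2 (0.059) of that time. The transcripts share 197 words of 75 bases, 11.7% of those of Lefty1 and 7.77% of those of Lefty2. Reads or read pairs that lie wholly within those stretches cannot be told apart by sequence. Introns, which the counts include, were not searched, so the share of counted reads affected is not known.

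**Figure D2:**
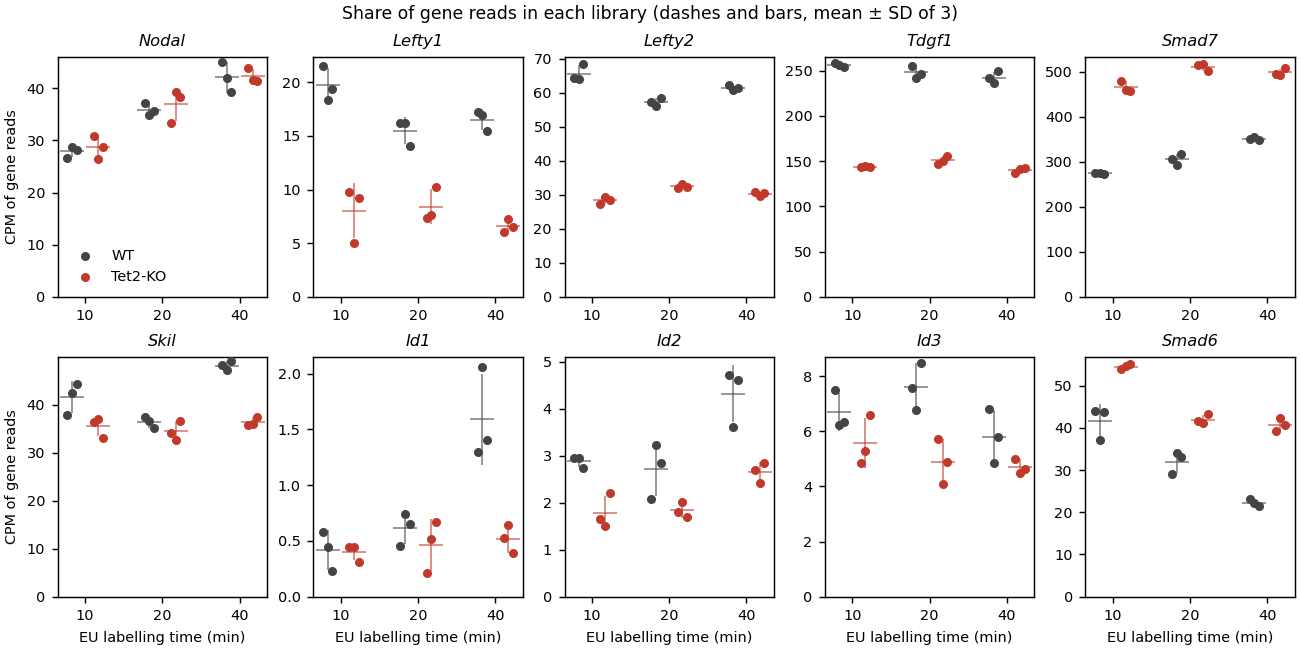
CPM (y axis, a separate linear scale for each gene) of the 10 genes in each of the 18 libraries, by labelling time in min (x axis), with a point for each WT or Tet2-KO library and dashes and bars for the mean ± SD of 3. Lefty1, Lefty2 and Tdgf1 were lower and Smad7 and Smad6 higher in Tet2-KO libraries at every time without overlap, whereas Nodal overlapped at every time.

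Smad7 (ENSMUSG00000025880, chromosome 18, 75367529 to 75395935, plus strand) encodes an inhibitory SMAD that acts on receptors of both branches. It was the most abundant of the 10 genes in counts, with 5545 to 10792 per library. In WT cells, Smad7 took 275, 275 and 273 CPM at 10 min, 306, 293 and 318 at 20 min and 349.7, 354 and 349 at 40 min. Smad7 in Tet2-KO cells took 480.0, 459.9 and 457 (10 min), 514, 518 and 501 (20 min) and 495, 493 and 507 (40 min). All Tet2-KO libraries lay above all WT libraries, those of other times included. The mean log2 difference in share was 0.67 ± 0.015 (SE; 1.59-fold), adjusted p = 6.7e-28, at percentile 91.8 of all genes. Measured per 1000 ERCC reads, Smad7 stood at 12.8, 14.0 and 11.7 (10 min), 44.2, 46.0 and 44.5 (20 min) and 85.1, 91.5 and 83.5 (40 min) in WT cells. The Tet2-KO values of Smad7 were 46.1, 41.2 and 46.0 (10 min), 98.5, 112 and 106 (20 min) and 212, 180.4 and 201 (40 min), which did not overlap with WT at any time. The log2 difference on this scale was 1.40 ± 0.050 (SE; 2.65-fold), adjusted p = 5.0e-98, which was 0.71 above the median of all genes.

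Smad6 (ENSMUSG00000036867, chromosome 9, 63953076 to 64022059, minus strand) encodes the inhibitory SMAD that acts mainly on the BMP branch, and with 68984 bp it has the longest span of the 10 genes. In WT cells, Smad6 took 44.1, 37.1 and 43.7 CPM at 10 min, 29.1, 34.0 and 33.0 at 20 min and 23.1, 22.2 and 21.6 at 40 min. Smad6 in Tet2-KO cells took 53.9, 54.6 and 55.0 (10 min), 41.5, 41.1 and 43.2 (20 min) and 39.1, 42.4 and 40.8 (40 min). The Tet2-KO libraries were above the WT libraries of the same time without overlap. Shares were lower at 40 than at 10 min in both genotypes, but the Tet2-KO libraries of 20 and 40 min overlapped. The mean log2 difference in share was 0.55 ± 0.039 (SE; 1.46-fold), adjusted p = 5.4e-14, at percentile 89.4. Per 1000 ERCC reads, Smad6 stood at 2.05, 1.89 and 1.87 (10 min), 4.20, 5.34 and 4.63 (20 min) and 5.63, 5.75 and 5.16 (40 min) in WT cells. The Tet2-KO values of Smad6 were 5.17, 4.89 and 5.54 (10 min), 7.95, 8.86 and 9.13 (20 min) and 16.8, 15.5 and 16.2 (40 min), again without overlap. The log2 difference was 1.28 ± 0.062 (SE; 2.43-fold), adjusted p = 1.8e-65, which was 0.59 above the median of all genes. The 2 inhibitory SMAD genes were the only ones of the 10 called higher on both scales.

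Skil (ENSMUSG00000027660, chromosome 3, 31095058 to 31122577, plus strand) encodes SnoN, a co-repressor of SMAD complexes that TGF-β family signals induce. In WT cells, Skil took 37.9, 42.4 and 44.3 CPM at 10 min, 37.5, 36.5 and 35.2 at 20 min and 48.2, 47.2 and 49.1 at 40 min. Skil in Tet2-KO cells took 36.4, 37.0 and 33.1 (10 min), 34.0, 32.6 and 36.7 (20 min) and 35.7, 36.0 and 37.5 (40 min). The genotypes overlapped at 20 min and Tet2-KO was below WT without overlap at 10 and 40 min. The mean log2 difference in share was −0.24 ± 0.037 (SE), adjusted p = 1.9e-06. When scaled to 1000 ERCC reads, Skil stood at 1.76, 2.16 and 1.90 (10 min), 5.41, 5.74 and 4.93 (20 min) and 11.7, 12.2 and 11.7 (40 min) in WT cells. The Tet2-KO values of Skil were 3.50, 3.31 and 3.33 (10 min), 6.52, 7.02 and 7.75 (20 min) and 15.3, 13.2 and 14.9 (40 min), above WT at every time. The log2 difference per ERCC read was 0.50 ± 0.061 (SE; 1.41-fold), adjusted p = 1.1e-14, which is 0.20 below the median of all genes. Skil was thus higher per ERCC read and lower as a share. At 40 min its call per ERCC read (0.28, adjusted p = 0.012) was lost without Tet2-KO replicate 1 (adjusted p = 0.059) or 3 (0.051) of that time, and its 10 min call as a share (−0.23, adjusted p = 0.0044) was lost with DESeq2 (−0.16, adjusted p = 0.053).

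**Figure D3:**
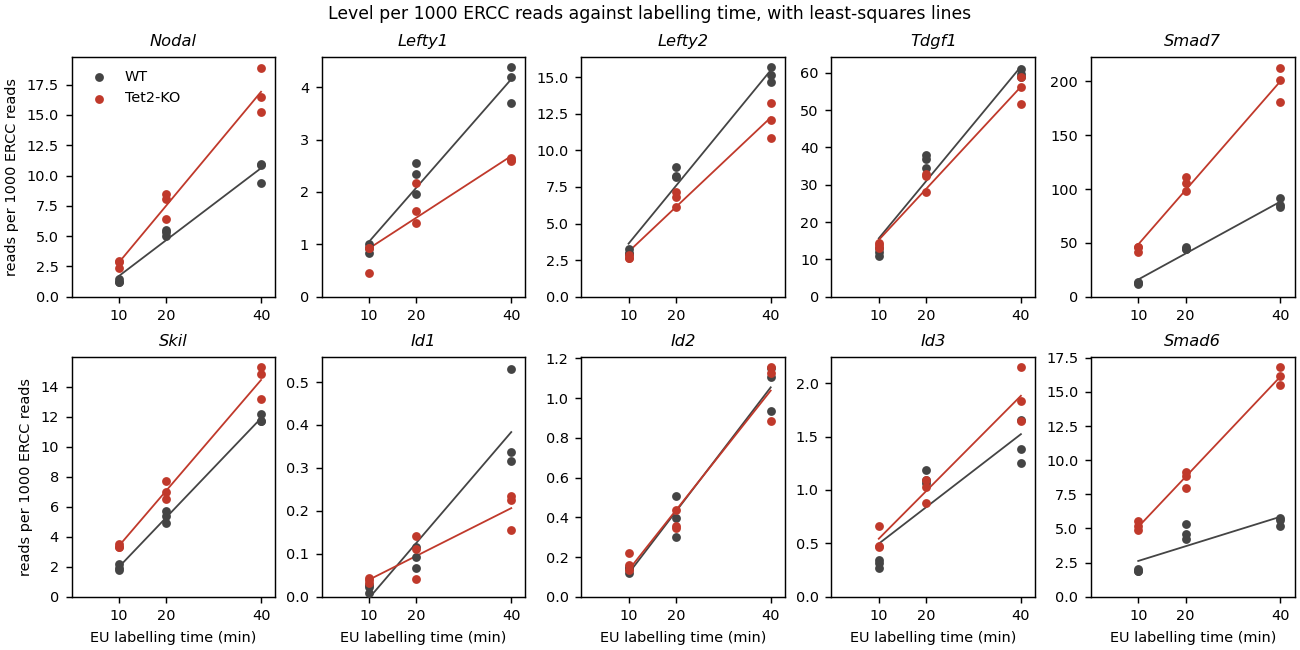
Reads per 1000 ERCC reads (y axis, a separate linear scale for each gene) of the 10 genes against labelling time in min (x axis), with a point for each library and the least-squares line of each genotype (9 libraries). Smad7, Smad6, Nodal and Skil were above WT at all 3 times in Tet2-KO cells and Lefty2 below, and the scale matters for Skil, which was lower in Tet2-KO cells as a share of gene reads.

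The Id genes encode helix-loop-helix proteins without a DNA-binding region that block basic helix-loop-helix factors, and they are textbook targets of BMP signalling. They lie on chromosome 2 (Id1, ENSMUSG00000042745, 152736251 to 152737410, plus strand), chromosome 12 (Id2, ENSMUSG00000020644, 25093799 to 25097140, minus strand) and chromosome 4 (Id3, ENSMUSG00000007872, 136143497 to 136145755, plus strand). All 3 were measured at low counts, 4 to 42 for Id1, 27 to 109 for Id2 and 79 to 182 for Id3. In WT cells, Id3 took 7.49, 6.24 and 6.34 CPM at 10 min, 7.58, 6.76 and 8.48 at 20 min and 6.81, 4.85 and 5.78 at 40 min. Id3 in Tet2-KO cells took 4.85, 5.27 and 6.61 (10 min), 5.72, 4.09 and 4.88 (20 min) and 5.01, 4.50 and 4.63 (40 min). The genotypes separated only at 20 min, with Tet2-KO below WT, and the mean log2 difference was −0.40 ± 0.093 (SE), adjusted p = 0.00040. Per ERCC read Id3 went the other way, with a log2 difference of 0.33 ± 0.105 (adjusted p = 0.0022) that was 0.36 below the median of all genes, and the genotypes separated at 1 of the 3 times. Its values per 1000 ERCC reads averaged 0.312 ± 0.0389, 1.12 ± 0.0649 and 1.43 ± 0.206 in WT and 0.535 ± 0.114, 1.00 ± 0.110 and 1.88 ± 0.255 in Tet2-KO cells (mean ± SD, n = 3 each).

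In WT cells, Id2 took 2.96, 2.96 and 2.74 CPM at 10 min, 2.09, 3.22 and 2.84 at 20 min and 4.72, 3.62 and 4.61 at 40 min. Id2 in Tet2-KO cells took 1.65, 1.50 and 2.204 (10 min), 1.80, 2.02 and 1.70 (20 min) and 2.69, 2.42 and 2.84 (40 min). Tet2-KO was below WT without overlap at each time, and the mean log2 difference in share was −0.65 ± 0.124 (SE; 1.57-fold lower), adjusted p = 3.1e-05. The call at 20 min (−0.56, adjusted p = 0.045) was lost with the replicate number as a block (adjusted p = 0.053), with TMM factors (0.052), without a filter on low counts (0.13), with DESeq2 (0.084) and with 20 min fitted alone (0.057). It was also lost without WT replicate 2 or 3 of 20 min, WT replicate 1 or 3 of 40 min or any single Tet2-KO library of 20 or 40 min (log2 −0.63 to −0.43, adjusted p from 0.0501 to 0.19). Per 1000 ERCC reads, Id2 averaged 0.135 ± 0.0169, 0.402 ± 0.103 and 1.06 ± 0.112 in WT and 0.171 ± 0.0453, 0.379 ± 0.0487 and 1.06 ± 0.148 in Tet2-KO cells (mean ± SD, n = 3 each), overlapping at every time. The log2 difference per ERCC read was 0.08 (95% interval −0.20 to 0.36, adjusted p = 0.61).

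In WT cells, Id1 took 0.583, 0.449 and 0.228 CPM at 10 min, 0.458, 0.740 and 0.652 at 20 min and 1.30, 2.06 and 1.41 at 40 min. Id1 in Tet2-KO cells took 0.445, 0.444 and 0.315 (10 min), 0.212, 0.518 and 0.668 (20 min) and 0.528, 0.643 and 0.3904 (40 min). The genotypes overlapped at 10 and 20 min and separated at 40 min, where the WT libraries were the highest of all. The mean log2 difference in share was −0.68 (95% interval −1.21 to −0.15, adjusted p = 0.032), and at 40 min it was −1.59 ± 0.429 (SE; 3.01-fold lower, adjusted p = 0.0032). The mean call rested on few counts and was lost without WT replicate 1 of 10 min (−0.58, adjusted p = 0.079), WT replicate 2 (−0.63, 0.061) or 3 (−0.67, 0.0504) of 20 min, WT replicate 2 of 40 min (−0.61, 0.075), or Tet2-KO replicate 3 of 10 min (−0.64, 0.057), replicate 1 of 20 min (−0.57, 0.075) or replicate 3 of 40 min (−0.63, 0.062). Per ERCC read the mean log2 difference of Id1 was 0.03 (95% interval −0.45 to 0.52, adjusted p = 0.90), which averages values of opposite sign. It was 0.93 at 10 min, with every Tet2-KO library above every WT library. It was 0.09 at 20 min and −0.93 at 40 min, where every Tet2-KO library lay below every WT library. None of these passed in the fit of all times (adjusted p = 0.11, 0.89 and 0.074). With 40 min fitted alone, Id1 was called lower per ERCC read (−0.91, adjusted p = 0.016).

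The genotype difference was also tested at each labelling time, with shares read against all genes of the same time. As a share of gene reads, 2 genes were called higher and 5 lower at 10 min (17.9% of all genes higher, 27.1% lower), 2 higher and 5 lower at 20 min (17.6% and 20.7%) and 2 higher and 6 lower at 40 min (18.9% and 19.6%). Smad7 and Smad6 were the 2 higher genes at each time, and Lefty1, Lefty2, Tdgf1 and Id2 were among the lower genes at each time. Skil joined them at 10 and 40 min, Id3 at 20 min (−0.64) and Id1 at 40 min. Per ERCC read, 6 genes were called higher and none lower at 10 min (79.0% and 2.10% of all genes), 4 higher and 3 lower at 20 min (53.7% and 4.86%) and 4 higher and 2 lower at 40 min (68.2% and 2.84%). Nodal, Smad7, Skil and Smad6 were the 4 called higher at each time, with Tdgf1 and Id3 added at 10 min.

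A test of the change between 10 and 40 min found that the genotype difference of Smad6 grew and that of Smad7 shrank as a share. Smad6 differed by 0.39, 0.39 and 0.87 (log2) at 10, 20 and 40 min, a change of 0.48 ± 0.096 (SE, adjusted p = 0.00098), while Smad7 differed by 0.76, 0.74 and 0.51, a change of −0.26 ± 0.037 (adjusted p = 1.3e-05). None of the other 8 genes passed this test on the share scale, where 5.89% of all genes changed upward and 3.36% downward. Per ERCC read, where 0.552% of all genes changed upward and 19.3% downward and the median change was −0.29, Smad7 (−0.60, adjusted p = 0.00013) and Skil (−0.52, adjusted p = 0.0069) were called and the other 8 were not. Smad6 changed by 0.13 per ERCC read (adjusted p = 0.60), so its widening difference was called only as a share.

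Labelling time itself changed the share of several genes in both genotypes. From 10 to 40 min in WT cells, the shares of Nodal (log2 0.59, adjusted p = 1.8e-08), Smad7 (0.36, 5.4e-13), Skil (0.21, 0.0057), Id1 (1.90, 0.00051) and Id2 (0.58, 0.016) rose, and those of Smad6 (−0.90, 1.8e-12) and Tdgf1 (−0.08, 0.023) fell. This made 5 genes higher and 2 lower, where 16.1% of all genes rose and 29.5% fell. In Tet2-KO cells, Nodal (0.56, adjusted p = 1.2e-07), Smad7 (0.10, 0.0027) and Id2 (0.57, 0.045) rose and Smad6 (−0.42, 4.3e-06) fell, which made 3 higher and 1 lower, where 16.5% and 20.0% of all genes did so. Lefty1, Lefty2 and Id3 passed in neither genotype. The protein-coding genes with a span of at least 50 kb had a median log2 change in share of −0.17 in WT and −0.09 in Tet2-KO cells over the same interval, against 0.01 and 0.00 for those under 5 kb, and the part of span length in the Smad6 decline was not tested. In WT cells the Tdgf1 and Id2 calls and the Skil call were each lost without some single library, namely Tdgf1 without replicate 1 of 10 min (adjusted p = 0.068) or replicate 1 (0.063) or 2 (0.13) of 40 min, Skil without replicate 1 of 10 min (0.057), and Id2 without replicate 1 (0.072) or 3 (0.060) of 40 min. The Id2 call in Tet2-KO cells was lost with the replicate number as a block (adjusted p = 0.0513) and without WT replicate 1 or 3 of 40 min, Tet2-KO replicate 1 or 2 of 10 min or any Tet2-KO library of 40 min (adjusted p from 0.0515 to 0.15).

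Ratios of 2 genes within a library do not depend on the scale, and 8 pairs were compared by a two-sided exact permutation test in which genotype labels were exchanged within labelling times in all 8000 ways, with Benjamini-Hochberg adjustment over the 8 pairs. The counts of Nodal per count of its antagonist Lefty1 ran from 1.24 to 1.57 in WT and from 3.11 to 5.23 in Tet2-KO libraries at 10 min, from 2.15 to 2.55 and from 3.72 to 5.14 at 20 min, and from 2.47 to 2.62 and from 5.76 to 7.23 at 40 min. The ratio of ligand to antagonist reads was higher in Tet2-KO cells by 2.33-fold (log2 1.22, exact permutation p = 0.00025, adjusted p = 0.00067). Nodal against Tdgf1 was higher by 1.75-fold (median ratio 0.111, 0.145 and 0.178 in WT and 0.200, 0.246 and 0.296 in Tet2-KO cells at 10, 20 and 40 min), and Skil against Smad7 lower by 1.88-fold (0.154, 0.123 and 0.138 against 0.0759, 0.0662 and 0.0731), each with the same exact permutation p and adjusted p and without overlap at any time. The value 0.00025 is the smallest p this design can give. Each ratio uses the same counts as the share differences above, so a ratio that passed restates those differences and is not separate evidence. Ratios of other gene pairs were not compared.

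The other 5 pairs did not pass. The ratio of Lefty1 to Lefty2 was lower by 0.17 (log2 −0.17, exact permutation p = 0.18, adjusted p = 0.30), so no difference between the antagonists was shown in how far they fell. The ratio of Smad6 to Smad7 differed by −0.12 over all times (exact permutation p = 0.25, adjusted p = 0.33), but by −0.37 at 10 min, −0.35 at 20 min and 0.36 at 40 min, with the genotypes apart at each time. Among the Id genes the log2 ratios differed by −0.28 for Id1 to Id3, −0.03 for Id1 to Id2 and −0.25 for Id2 to Id3 (exact permutation p = 0.40, 0.91 and 0.067, adjusted p = 0.46, 0.91 and 0.13).

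**Figure D4:**
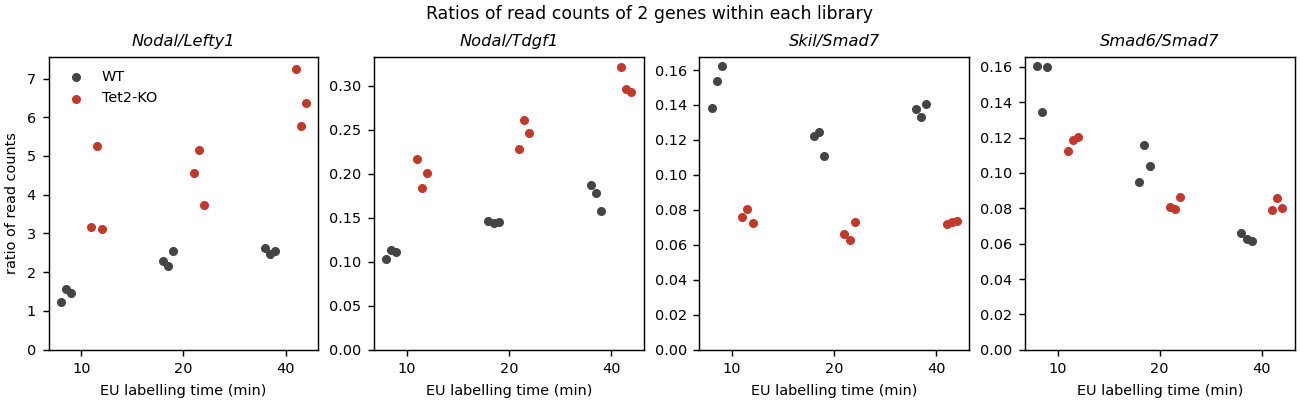
Ratio of the read counts of 4 gene pairs (y axis, a separate linear scale for each pair) by labelling time in min (x axis), with 1 point for each WT or Tet2-KO library. Nodal against Lefty1 and Nodal against Tdgf1 were higher in every Tet2-KO library than in every WT library of the same time, Skil against Smad7 was lower, and Smad6 against Smad7 was lower at 10 and 20 min and higher at 40 min.

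A line of reads per 1000 ERCC reads on labelling time was fitted through the 9 libraries of each genotype as an estimate of synthesis rate, given here as a description with no test. The slope for Smad7 was 2.41 ± 0.123 (SE) per min in WT and 5.05 ± 0.287 in Tet2-KO cells, a ratio of 2.10. For Smad6 the slopes were 0.108 ± 0.0243 and 0.367 ± 0.0139, a ratio of 3.40 that was the highest of the 10 and lay at percentile 94.9 of protein-coding genes. This ratio depended on the times used, with log2 values of 0.31 from 10 and 20 min, 3.25 from 20 and 40 min and 1.77 from all 3. Nodal had a ratio of 1.58 (0.297 ± 0.0187 and 0.469 ± 0.0312), near the median gene, whose log2 ratio was 0.62 against 0.66 for Nodal. Ratios were 1.31 for Id3, 1.11 for Skil, 0.964 for Id2, 0.892 for Tdgf1, 0.774 for Lefty2, 0.569 for Lefty1 and 0.431 for Id1. Lefty1 and Id1 lay at percentiles 2.76 and 1.58 of protein-coding genes. Other ratios also depended on the times used. From 10 and 20 min alone the log2 ratio was −0.26 for Id1 (−1.21 from all 3 times), −0.50 for Lefty1 (−0.81), 0.30 for Nodal (0.66), −0.50 for Tdgf1 (−0.17), −0.36 for Id2 (−0.05) and −0.78 for Id3 (0.38). From 20 and 40 min alone it was 0.06 for Tdgf1, 0.03 for Id2, 0.85 for Nodal and 1.47 for Id3. Tdgf1, Id2 and Id3 thus turned sign between these choices. Over 4 alternative fits, which varied the times, the intercept or the ERCC transcripts, the log2 ratio of Smad7 ran from 0.92 to 1.22 (1.07 in the main fit). Over the same fits it ran from −1.04 to −0.50 for Lefty1 and from −1.49 to −0.26 for Id1.

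Levels of different genes were compared per kb of annotated span, because the counts covered spans. In WT cells at 10 min the order in CPM per kb was Tdgf1 (39.1), Lefty2 (10.9), Smad7 (9.65), Lefty1 (5.84), Nodal (3.79), Id3 (2.96), Skil (1.51), Id2 (0.864), Smad6 (0.603) and Id1 (0.362), and no neighbours in this order overlapped. At 40 min in WT cells Smad7 (12.4) was above Lefty2 (10.3) and Nodal (5.72) above Lefty1 (4.89), and Skil (1.75), Id1 (1.37) and Id2 (1.29) overlapped with their neighbours. At 40 min in Tet2-KO cells Tdgf1 (21.3) was followed more closely by Smad7 (17.5), then by Nodal (5.75), Lefty2 (5.06), Id3 (2.09) and Lefty1 (1.95), of which the last 2 overlapped. At 40 min Nodal was above Lefty1 in both genotypes, below Lefty2 in WT cells and above Lefty2 in Tet2-KO cells. At 10 min Nodal was below both in WT cells. In Tet2-KO cells at 10 min Nodal (3.90) was above Lefty1 (2.37) and below Lefty2 (4.73). The order of these genes thus differed with labelling time as well as with genotype.

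The other genes of the pathways were taken from 8 lists with 67 genes, of which 54 passed the filter. As a share, 19 were called higher, 22 lower and 13 were not called, with a median of −0.09, where 24.6% of all genes were called higher and 32.0% lower, with a median of −0.04. Per ERCC read 42 were higher, 2 lower, among them Fst, and 10 not called, with a median of 0.64, where 80.5% of all genes were called higher and 4.15% lower, with a median of 0.70. These rates over all genes are the background for each list count that follows. Among ligands and processing enzymes of the Nodal and TGF-β branch, 3 of 8 were higher and 3 lower as a share. Pcsk6, a convertase that cleaves Nodal family precursors, rose by 0.50 (log2, adjusted p = 6.3e-25), and the ligand genes Tgfb2 (−0.82, 4.2e-14) and Tgfb1 (−0.74, 0.00010) fell. Of 9 receptor and SMAD genes, 5 were higher and 3 lower, among them the signal-carrying Smad3 (0.84, 2.3e-23) and Smad4 (0.14, 4.6e-06), which rose, and the DNA-binding partner Foxh1 (−0.50, 2.7e-05), which fell. All 8 tested inhibitors and co-repressors were called, 4 in each direction. The secreted activin antagonist Fst fell (−1.02, 2.2e-15), as did the ubiquitin ligase gene Smurf2 (−0.18, 8.5e-10), and the secreted antagonist Dand5 rose (0.72, 0.0013). Of 5 further Nodal and TGF-β targets that were tested, none was called higher and 3 were lower, among them Eomes (−0.66, 1.0e-06) and Pmepa1 (−0.40, 4.6e-15), with a list median of −0.40. Per ERCC read Eomes was not called (0.08, adjusted p = 0.52) and Pmepa1 was called higher (0.34, adjusted p = 2.9e-09). Of the other genes named here as falling in share, Smurf2 (0.55, 4.2e-24) and Foxh1 (0.25, 0.022) were called higher on that scale. Fst was called lower (−0.29, 0.0013), and Tgfb2 (−0.09, 0.23) and Tgfb1 (−0.00, 0.98) were not called.

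On the BMP side, 2 of 6 ligand genes were higher and 3 lower as a share, with Bmp8b (0.72, adjusted p = 1.7e-07) and Bmp8a (0.41, 4.3e-09) rising and Bmp7 (−0.76, 8.5e-10) falling. Of 7 receptor and SMAD genes, 4 were higher and 1 lower, and the receptor genes Bmpr2 (0.46, 4.4e-16) and Bmpr1a (0.11, 5.9e-06) and the signal-carrying Smad1 (0.30, 2.5e-11) were among those that rose. No BMP antagonist of 6 was higher and 3 were lower, with a median of −0.44. Fstl1 (−0.83, 9.5e-23) and Bmper (−0.77, 5.4e-05), both secreted regulators of BMP ligands, were among the 3. Among 5 further BMP targets, 1 was higher, Dusp9 (0.67, 0.00020), a phosphatase that acts on ERK, and 2 were lower, among them the transcription factor Gata2 (−0.97, 0.00022), while Zfp423, a cofactor of BMP SMADs, was not called (−0.04, 0.25). Per ERCC read, Bmp7 (−0.03, 0.78), Fstl1 (−0.10, 0.11), Bmper (−0.03, 0.87) and Gata2 (−0.24, 0.30) were not called. As a share, the receptor and SMAD lists had medians above that of all genes (0.13 and 0.16 against −0.04), and the further Nodal targets and BMP antagonists medians below it. Per ERCC read, 9 of 9 and 7 of 7 receptor and SMAD genes were called higher, and 3 of 5 further Nodal targets and 3 of 6 BMP antagonists, where 80.5% of all genes were.

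**Figure D5:**
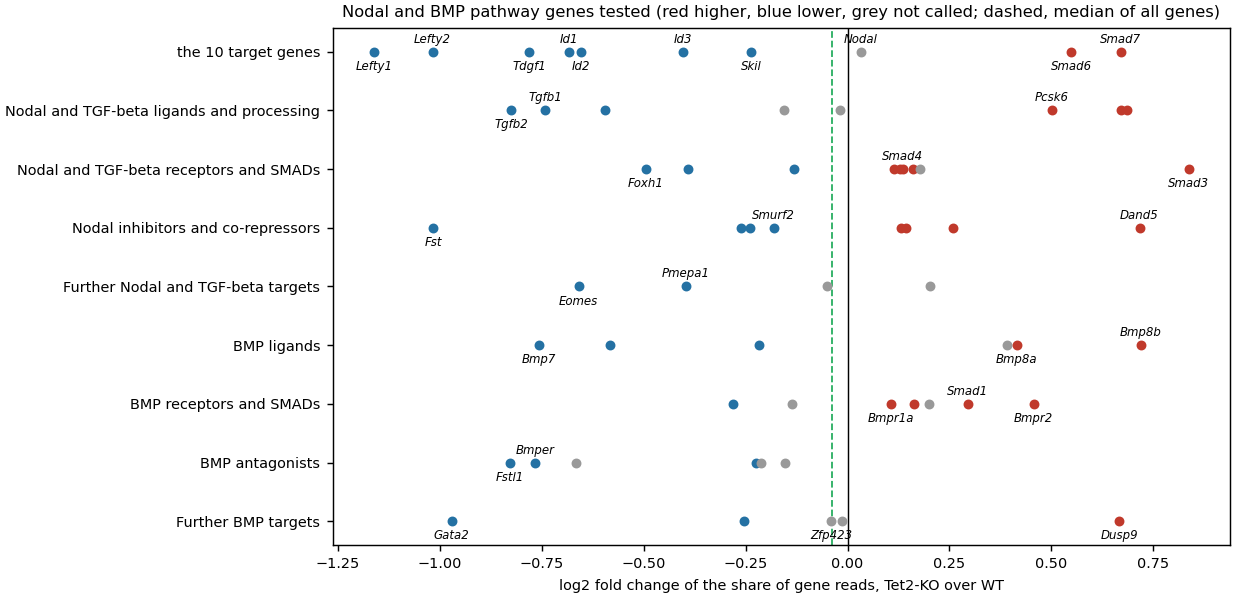
Log2 difference of Tet2-KO against WT as a share of gene reads (mean of the labelling times, x axis) for the tested genes of the 8 pathway lists (y axis; 1 of the 5 further Nodal and TGF-β targets is not shown), with the 10 target genes in the top row, red for called higher, blue for called lower, grey for not called and a dashed line at the median of all genes (−0.04). Receptor and SMAD lists had medians of 0.13 and 0.16 and further Nodal targets and BMP antagonists medians of −0.40 and −0.44, while per ERCC read 42 of these 54 genes were called higher, as were 80.5% of all genes.

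For each gene the protein-coding gene with the most similar share across the 18 libraries was found, among genes with a mean log2 level above 2 CPM. Each r below is thus the highest of 10775 candidates, or of 10776 for Id1 and Id2. Pearson's r, given as a description over 18 libraries that share genotype and labelling time, was 0.996 for Tdgf1 with BC067074, 0.994 for Smad7 with Aebp2, 0.992 for Lefty2 with Lrrfip1 and 0.986 for Smad6 with Tex14. It was 0.966 for Lefty1 with Dtna, 0.964 for Nodal with Otud7b, 0.930 for Id2 with Scd2, 0.912 for Id3 with Kif9, 0.908 for Skil with Lpin1 and 0.863 for Id1 with Ash2l.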

How the data were processed

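The 18 libraries held 5-EU-labelled RNA of mES cells, WT or Tet2-KO. The deposited files hold read counts per gene that the authors made with HTSeq 0.12.4 after trimming with Trimmomatic 0.39 and alignment to mm10 with HISAT2 2.2.1, per the submitters' processing notes; the feature type and strand setting are not given in the sources used here. The count columns were used as deposited, and summary lines for unassigned reads stayed out of library sizes (13.2% to 16.9% of reads without a feature, 2.32% to 2.50% ambiguous). Gene symbols and coordinates come from GENCODE M21.

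Genes were filtered with edgeR 4.0.16 (filterByExpr, minimum count 10) in R 4.3.3, and all 6 groups of genotype and labelling time were fitted together with edgeR's quasi-likelihood test and Benjamini-Hochberg adjustment over 19910 genes, threshold 0.05. Library size was the total of ERCC reads (92 transcripts) or the total of gene reads. The fit was tested on simulated data. Ratios used counts plus 0.5. DESeq2 1.42.0, TMM factors, other filters, a replicate block, single labelling times and leaving out each library were tried as alternatives.

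The 10 genes, the pathway lists and the marker lists were chosen with earlier results of these data known. Besides the 10 genes, the text names from each pathway list the gene with the highest level per kb of exon and those with the 2 largest called changes in share, and for each of the 10 genes the most correlated protein-coding gene. Single marker genes in the text were named after their values were seen. Replicates of a group differed by more than counting noise (chi-square per gene 1.66 to 5.53), so none was counted as a repeat deposit. Replicate numbers did not pair samples: deviations of same-numbered samples correlated at −0.22 to 0.19 (median 0.00057, 45 pairs). Results of 1 gene of the pathway lists are not reported here.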

Additional observations from a re-analysis of the deposited data

Results flagged for a closer look

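In 4 cases the genotype difference of a gene differed between labelling times by a test of the change itself, the contrast of Tet2-KO against WT at 40 min minus that at 10 min in the quasi-likelihood test of edgeR with adjustment after Benjamini and Hochberg. Smad7 was among them on both scales, with a change of −0.257 (log2) as a share of gene reads and −0.602 per ERCC read. Skil changed by −0.522 per ERCC read, where the median of all genes changed by −0.29. Of all genes tested, 19.3% were called downward and 0.552% upward by this test per ERCC read. As a share, 3.36% were called downward and 5.89% upward. Smad6 changed by 0.480 as a share of gene reads, in the direction opposite to Smad7, and all 3 Tet2-KO libraries of each time lay above the WT libraries for both genes.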

How the results depend on the processing

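As a share of gene reads, Nodal, Lefty1, Lefty2, Tdgf1, Smad7 and Smad6 kept their call or lack of one, averaged over times, under every alternative run. Id2, Id3 and Skil lost theirs only where 1 labelling time was fitted alone. Id1 lost its call without a filter on low counts (adjusted p = 0.052) and with 10 min (0.96) or 20 min (0.55) fitted alone. It was also lost without some single libraries, as given above. Id1 could not be fitted with at least 10 counts in every library. With 1 labelling time fitted alone, 4 of the 10 genes were lower as a share at 10 min and 4 at 20 min, against 7 over all times. Per ERCC read, none was lower at 10 min alone (0 against 2), and the log2 difference turned sign for Tdgf1 at 10 min alone (0.20), Id2 at 20 min (−0.0790) and 40 min (−0.0241), Id3 at 20 min (−0.15) and Id1 at 40 min (−0.91, adjusted p = 0.016, called lower). Without 1 library it ran from −0.0896 to 0.160 for Id1. The number of genes whose difference per ERCC read fell from 10 to 40 min was 4 with protein-coding genes only and 4 with DESeq2, against 2, and 2 to 5 without 1 library (5 without WT or Tet2-KO replicate 2 of 10 min, 4 without Tet2-KO replicate 1 of 40 min). The number whose share fell with time in WT cells was 1 with TMM factors, without a filter or with DESeq2, against 2, and Tdgf1 then changed by 0.0226 with TMM and 0.0181 with DESeq2; without 1 library it was 1 to 3 (1 without WT replicate 1 of 10 min or WT replicate 1 or 2 of 40 min), and 1 to 2 in Tet2-KO cells (2 without Tet2-KO replicate 2 of 10 min). The number lower per ERCC read was 1 at 10 min with TMM among ERCC transcripts, against 0, and without 1 library 0 to 1 at 10 min (1 without WT replicate 3 or Tet2-KO replicate 1 or 3) and 1 to 3 at 20 min (1 without WT replicate 2 or Tet2-KO replicate 1). Calls at single times or over time were also lost for Skil as a share at 10 min with DESeq2 (adjusted p = 0.053), Id2 as a share at 10 min alone (0.068) and the rise of Id2 without a filter (0.053 in WT, 0.14 in Tet2-KO). The ratio of Nodal to Lefty1 differed by 0.93 (log2) at 20 min alone, and Id1 to Id2 by 0.10 with a pseudocount of 5 and by −0.16 to 0.12 without 1 library. The cause of these shifts was not tested.

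Replicate numbers did not pair the samples. With the replicate block, Id2 lost its call as a share at 20 min (−0.56, adjusted p = 0.053) and its rise in Tet2-KO cells (0.57, adjusted p = 0.051), and no other called gene lost a call. Protein identity within the gene families was planned and not run. Counting depth limits the Id genes most, and intervals cover the spread between these libraries only.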
